A study of Gallus gallus with 6 samples.

Results

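Brush border peptidases are the enzymes anchored on the microvilli of the intestinal lining that cut dietary peptides into amino acids and very short peptides. The set described here holds 9 genes, ANPEP, ENPEP, DPP4, MME, ACE, MEP1A, MEP1B, GGT1 and TMPRSS15, chosen by name with earlier results of these data known. All 9 are among the 15656 genes with a symbol in the deposited expression table. RNA was sequenced from jejunal mucosa, the absorbing lining of the middle small intestine, of 28-week-old breeder hens of 2 genotypes. The labels give the genotype Leuang Hang Kao for the heat-adapted and SUT for the heat-sensitive hens, and all of them were kept at 36 °C for 6 h before sampling. Each group had 3 libraries, each made from RNA pooled from 4 hens, so that 12 of the 25 hens housed per group entered the pools. The design text says that hens were assigned to the groups at random, whereas the sample labels give the groups different genotypes. Both groups were heated, and the comparison therefore holds no response to heat within a genotype.

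Protein digestion begins in the stomach and is carried on by pancreatic enzymes in the gut lumen. Those enzymes are secreted as inactive zymogens, and enteropeptidase on the enterocyte surface starts their activation by cutting trypsinogen. The peptides that result are trimmed on the brush border from their amino end by aminopeptidases and by a dipeptidyl peptidase, from their carboxyl end by angiotensin-converting enzyme, and internally by endopeptidases, before carriers take up amino acids and short peptides. The roles given below are those known mainly from mammals.

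Values are FPKM, fragment counts scaled by the authors for gene length and library size, so that levels can be set side by side between genes. Total deposited read counts ran from 10829957 to 13070796 a library, and these counts stand in another row order than the symbols. A count row could be tied to 193 genes through the profile over the heat-sensitive libraries. For each of those genes, log2 read count over FPKM was taken minus its mean over the heat-sensitive libraries. The SD of these values over the genes was 0.743 to 1.03 for heat-adapted libraries. For heat-sensitive libraries it was 0.0011 to 0.0017, a closeness that the rule for tying rows requires. Before rows were tied, the log ratios between a group's libraries were compared over pairs of FPKM and count rows. The tallest peak of shared shifts stood 32.1 SD above its surroundings for heat-sensitive and 4.73 SD for heat-adapted libraries. In the rows so tied, FPKM and read counts of the same heat-adapted label were not the same values up to a factor. How many rows were tied to a wrong gene was not determined. The sources used here do not say whether FPKM or read counts hold the labelled libraries. Results below for the heat-adapted group come from its FPKM columns, except where a sentence gives read counts. Heat-sensitive replicate 2 stood apart in heat shock genes, with HSPA2 at an FPKM of 2889 there where replicates 1 and 3 had 165 and 143 and the heat-adapted libraries 51.0 to 63.1.

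The tissue label was checked against markers of the cell types that mucosa can hold. All 10 markers of mature enterocytes were present, with a summed FPKM of 34726 to 52028 in heat-adapted and 20968 to 43359 in heat-sensitive libraries, and all 10 had a positive log2 difference, 3 of them, VIL1, SI and CDH17, with an unadjusted p under 0.05. Cycling cell markers had a summed FPKM of 138 to 196 against 294 to 342, and all 9 were lower at an unadjusted p under 0.05. Smooth muscle markers summed to 164 to 447 against 413 to 942 and B and plasma cell markers to 13259 to 20529 against 28071 to 31522, with 8 of 8 and 7 of 7 negative. Negative differences were also found for 7 of 7 fibroblast, 6 of 6 endothelial, 3 of 3 stem cell, 6 of 7 T and natural killer cell, 4 of 6 macrophage, 4 of 6 endocrine, 2 of 6 goblet cell and 1 of 2 red blood cell markers tested. Of all 11587 genes tested, 6752 had a negative difference, and the macrophage, endocrine and red blood cell counts were near that share. At an unadjusted p under 0.05 in limma, 10.9% of all genes tested were lower and 7.13% higher, and 41.7% had a positive difference. No marker of any of these lists was listed at 0 in all 6 libraries. The part of cell makeup in the differences below was not tested, and in bulk RNA fewer cells of a type and less RNA per cell cannot be told apart.

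ANPEP was the most abundant of the 9 peptidases in every library, and 8 of the 9 had a higher mean FPKM in the heat-adapted group. MME, MEP1B and TMPRSS15 had the largest ratios of group means, 2.78, 1.88 and 1.67, while ANPEP had a ratio of 0.876. In the read counts tied to TMPRSS15, scaled to the library total, its ratio of group means was 0.970, on the other side of 1. On the log2 scale the difference in those counts was 0.14, of the same sign as the 0.90 in FPKM but smaller. None of the 9 passed in limma after adjustment over all 11587 genes tested, and MEP1B and MME reached an unadjusted p under 0.05. In that comparison 0.0949% of the genes tested passed after adjustment, and at an unadjusted p under 0.05 7.13% of them had a positive and 10.9% a negative difference. That balance turned with FPKM rescaled to TPM, from 826 higher and 1260 lower genes as deposited to 1342 higher and 701 lower.

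**Figure D1:**
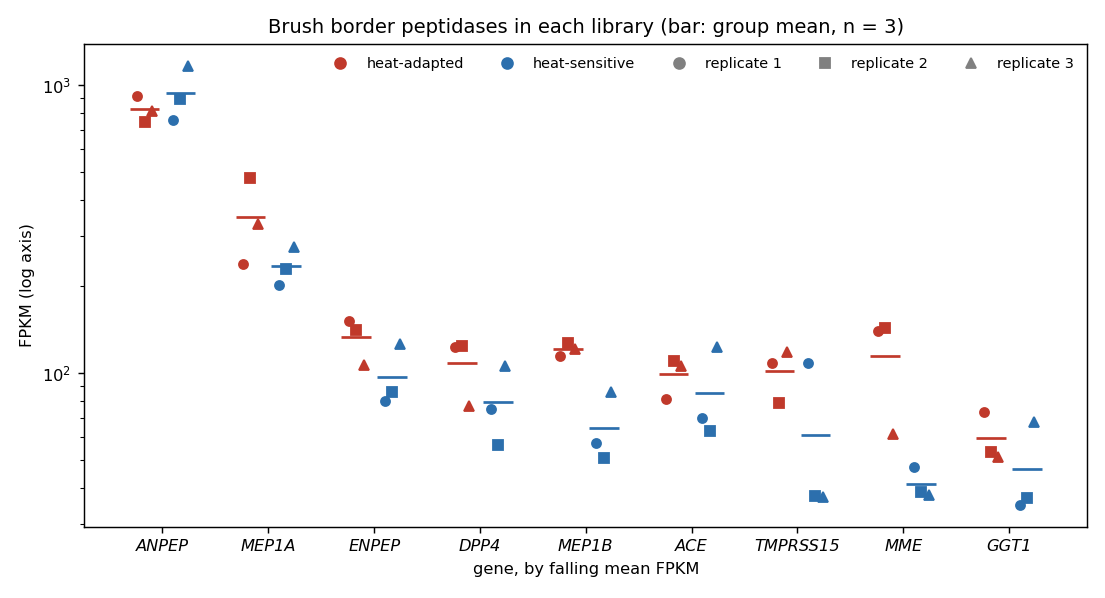
FPKM on a log axis of the 9 peptidase genes in each of the 6 libraries, with red points for heat-adapted and blue points for heat-sensitive libraries, a marker shape per replicate and a bar at each group mean (n = 3). ANPEP lies between 742 and 1164 in every library, and MEP1B and MME are the genes whose groups do not overlap.

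By level, ANPEP ranked 160 and MEP1A 370 among the 15656 genes by mean FPKM over the 6 libraries, and GGT1, the lowest of the 9, ranked 1926. In both groups ANPEP stood above MEP1A with no overlap of libraries, and MEP1A stood above ENPEP, the next, with no overlap. Below these, neighbours in the order overlapped in the heat-sensitive group all the way down, from ENPEP through ACE, DPP4, MEP1B, TMPRSS15 and GGT1 to MME. In the heat-adapted group the order after ENPEP was MEP1B, MME, DPP4, TMPRSS15, ACE and GGT1, and ACE against GGT1 was the last pair and the only pair below ENPEP without overlap. By mean, MME was thus the lowest of the 9 in the heat-sensitive group, at 41.1, and stood above DPP4, TMPRSS15, ACE and GGT1 in the heat-adapted group, at 115. Single libraries differed from this order. In heat-adapted replicate 3 MME, at 61.2, lay below DPP4 (77.1), ACE (106) and TMPRSS15 (118). GGT1 lay below MME in heat-sensitive replicates 1 and 2, and TMPRSS15 did so in replicates 2 and 3 of that group.

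Aminopeptidase N, encoded by ANPEP, removes neutral residues from the amino end of peptides. Its FPKM was 915, 742 and 809 in heat-adapted replicates 1 to 3 and 758, 893 and 1164 in heat-sensitive replicates 1 to 3. The groups overlapped, with the highest value in heat-sensitive replicate 3 and the lowest in heat-adapted replicate 2. The means were 822 ± 87.0 and 938 ± 207 (SD, n = 3 each), a log2 difference, taken as heat-adapted minus heat-sensitive in log2(FPKM + 1), of -0.17 (SE 0.20, adjusted p = 0.681 in limma). The 95% interval of that difference, -0.62 to 0.28, spans 0. With a library left out in turn the difference ranged from -0.32, without heat-sensitive replicate 1, to -0.01, without heat-sensitive replicate 3.

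ENPEP encodes glutamyl aminopeptidase, or aminopeptidase A, which removes acidic residues from the amino end and also acts on angiotensin II. Heat-adapted replicates 1 to 3 had an FPKM of 151, 141 and 107 and heat-sensitive replicates 1 to 3 of 79.7, 85.8 and 126. Heat-sensitive replicate 3 lay above heat-adapted replicate 3, and the other heat-sensitive libraries lay below all heat-adapted ones. The log2 difference was 0.46 (SE 0.21, adjusted p = 0.284 in limma).

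DPP4 encodes a serine peptidase that releases dipeptides from peptides with proline or alanine next to the terminal residue, and that also inactivates incretin hormones. Its FPKM was 123, 124 and 77.1 in the heat-adapted and 75.1, 56.0 and 106 in the heat-sensitive libraries. As for ENPEP, heat-adapted replicate 3 lay below heat-sensitive replicate 3. The log2 difference was 0.46 (SE 0.26, adjusted p = 0.382 in limma), and it was 0.24 and 0.70 when heat-sensitive replicate 2 or 3, respectively, was left out.

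The meprins are zinc endopeptidases of the astacin family, and MEP1A and MEP1B encode their alpha and beta subunits. The heat-adapted libraries had a MEP1B FPKM of 115, 127 and 121, and the heat-sensitive libraries had 57.0, 50.8 and 85.6. Its heat-adapted values lay close together, within a 1.11-fold range, and above every heat-sensitive value. The means were 121 ± 6.41 and 64.5 ± 18.6 (SD, n = 3 each), a log2 difference of 0.93 (SE 0.19, 95% interval 0.49 to 1.37), with an unadjusted p of 0.000979 and an adjusted p = 0.0893 in limma. Over the settings tried for MEP1B the difference ranged from 0.78 to 1.15 and the adjusted p from 0.0535 to 0.234.

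For MEP1A the FPKM was 239, 476 and 329 in heat-adapted libraries, while heat-sensitive libraries had 202, 229 and 273. Its heat-adapted values ran from 239 to 476, and heat-adapted replicate 1 lay below heat-sensitive replicate 3. The log2 difference was 0.52 (SE 0.25, adjusted p = 0.305 in limma) and was 0.27 without heat-adapted replicate 2. The subunit genes thus differed in how their libraries were spread, with heat-adapted replicate 1 the lowest of its group for both.

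MME encodes neprilysin, a zinc endopeptidase of the cell surface that cuts peptides on the amino side of hydrophobic residues. Its FPKM was 139, 143 and 61.2 in heat-adapted libraries, compared with 47.1, 38.5 and 37.8 in heat-sensitive libraries. All heat-adapted values lay above all heat-sensitive ones, but heat-adapted replicate 3 was much nearer to the heat-sensitive libraries than to the other heat-adapted ones. The means were 115 ± 46.2 and 41.1 ± 5.14 (SD, n = 3 each), a log2 difference of 1.36 (SE 0.31, 95% interval 0.66 to 2.07, unadjusted p = 0.00197, adjusted p = 0.108 in limma). Without heat-adapted replicate 3 the log2 difference was 1.76 and passed (adjusted p = 0.0102 in limma), while over all settings tried for MME the adjusted p ranged from 0.0102 to 0.321.

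ACE encodes angiotensin-converting enzyme, which releases dipeptides from the carboxyl end of peptides and is best known for making angiotensin II. Heat-adapted libraries had an FPKM of 81.1, 110.1 and 106 and heat-sensitive libraries of 69.8, 62.6 and 123, so that the highest and the lowest library were both heat-sensitive. The log2 difference was 0.27 (SE 0.25, adjusted p = 0.607 in limma). With a library left out in turn it ranged from 0.08, without heat-sensitive replicate 2, to 0.56, without replicate 3 of that group.

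GGT1 encodes gamma-glutamyltransferase, which splits the gamma-glutamyl bond of glutathione outside the cell. The FPKM of GGT1 was 73.5, 53.4 and 51.1 under the heat-adapted and 34.9, 36.9 and 67.8 under the heat-sensitive label. Heat-sensitive replicate 3 lay among the heat-adapted values and the other heat-sensitive libraries below them. The log2 difference was 0.39 (SE 0.26, adjusted p = 0.452 in limma). With a library left out in turn it ranged from 0.22, without heat-sensitive replicate 1, to 0.69, without replicate 3 of that group.

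TMPRSS15 encodes enteropeptidase, the serine peptidase that activates trypsinogen. Its FPKM was 108, 78.7 and 118 in heat-adapted replicates 1 to 3, and heat-sensitive replicates 1 to 3 had 108, 37.3 and 37.2. Heat-sensitive replicate 1 was level with heat-adapted replicate 1, while the other heat-sensitive libraries were nearly equal to each other and below every other library. With a 2.90-fold range, the heat-sensitive libraries were spread further for TMPRSS15 than for any other of the 9 genes. The log2 difference was 0.90 (SE 0.42, 95% interval -0.08 to 1.89, adjusted p = 0.310 in limma). With a library left out in turn it ranged from 0.65, without heat-sensitive replicate 3, to 1.41 (adjusted p = 0.0559 in limma), without replicate 1 of that group, and over all settings tried for TMPRSS15 the adjusted p ranged from 0.0559 to 0.661.

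**Figure D2:**
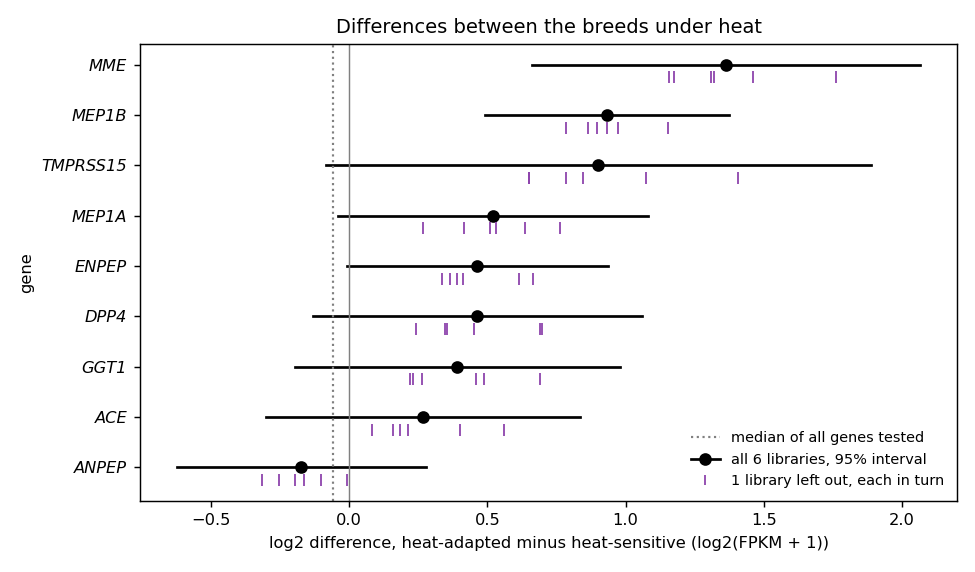
Difference in log2(FPKM + 1) of each peptidase gene, as heat-adapted minus heat-sensitive, with its 95% interval from limma (black), the values with each library left out in turn (purple ticks) and the median of all genes tested (dotted line, -0.06). The intervals of MME and MEP1B lie above 0, from 0.66 and 0.49, and the value for ANPEP is -0.17 with ticks from -0.32 to -0.01.

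Taking the 9 genes as a list, 8 had a positive log2 difference, against 41.7% of all genes tested, and the median was 0.46 against -0.06 over all genes tested. For 2 of the 9 the heat-adapted libraries lay above the heat-sensitive ones without overlap, as they did for 9% of all genes tested. With FPKM rescaled to TPM the median of all genes moved from -0.06 to 0.05. Relative to the median of all genes, the difference of MME was 1.42 with FPKM as deposited and 1.44 with TPM, that of MEP1B 0.99 and 1.01, and that of ANPEP -0.12 and -0.10. The sign of each of the 9 differences was the same as deposited, after TPM, after median-of-ratios scaling and after quantile normalization. In the FPKM columns, leaving out any single library kept the sign of all 9 as well, with ANPEP at -0.01 without heat-sensitive replicate 3.

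The libraries of a group did not shift all peptidases alike. For heat-sensitive replicate 3, the value was the highest of its group in 7 of the 9 genes, the exceptions being MME and TMPRSS15, which were highest in heat-sensitive replicate 1. Heat-adapted replicate 2 held the highest value of its group for 5 genes, DPP4, MME, ACE, MEP1A and MEP1B, and the lowest for ANPEP and TMPRSS15. Heat-adapted replicate 3 held the lowest value of its group for ENPEP, DPP4, MME and GGT1 and the highest for TMPRSS15. The median of the 9 genes, each centred on its own mean, was 0.43, 0.33 and 0.004 in heat-adapted replicates 1 to 3 and -0.47, -0.50 and 0.17 in heat-sensitive replicates 1 to 3. The medians of the groups overlapped, since that of heat-sensitive replicate 3 lay above that of heat-adapted replicate 3.

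**Figure D3:**
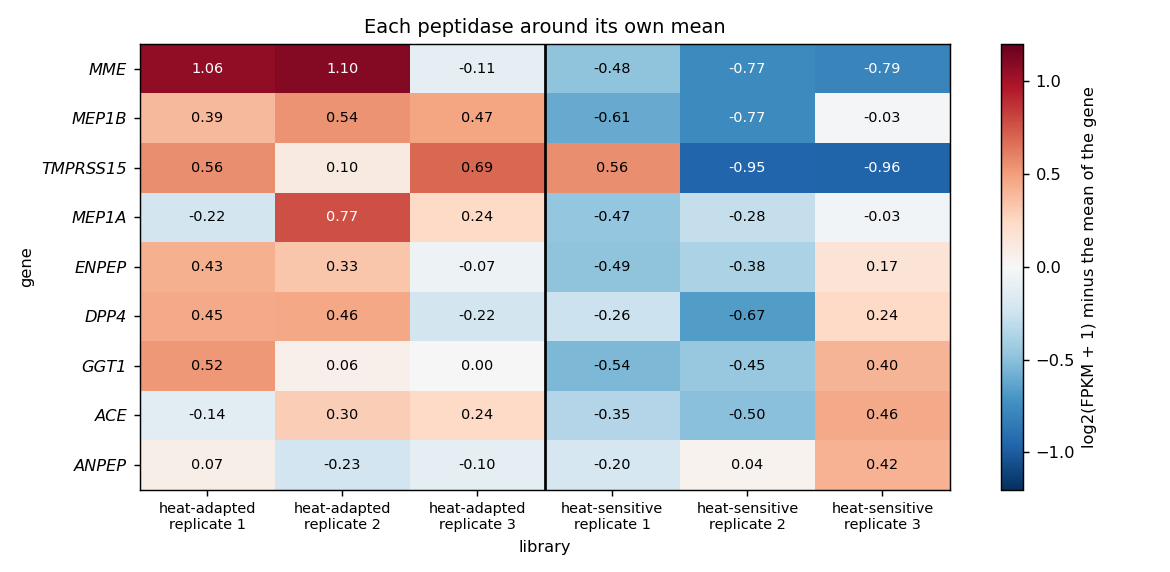
Log2(FPKM + 1) of each peptidase gene in each library minus the gene's mean over the 6 libraries, ordered by the difference between the groups, with red above and blue below the mean. MME stands at 1.06 and 1.10 in heat-adapted replicates 1 and 2 and at -0.11 in replicate 3, and TMPRSS15 at 0.56 in heat-sensitive replicate 1 and at -0.95 and -0.96 in the other heat-sensitive libraries.

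The makeup of the set differed along with these values. ANPEP made up 47.0%, 37.2% and 45.5% of the summed FPKM of the 9 genes in the heat-adapted libraries and 53.0%, 59.9% and 57.6% in the heat-sensitive ones, with no overlap. The sum of the 9 genes was 1945, 1997 and 1780 against 1431, 1490 and 2020, which overlap. The sum of the 8 genes other than ANPEP was 1030, 1255 and 970.2 in the heat-adapted and 673, 597 and 856 in the heat-sensitive libraries, which do not. That sum leaves out the only gene of the 9 with a negative log2 difference. MME made up 7.17%, 7.16% and 3.44% of the sum in the heat-adapted and 3.29%, 2.59% and 1.87% in the heat-sensitive libraries. MEP1B made up 5.89% to 6.82% against 3.41% to 4.24%. These shares and sums were computed after the FPKM values were seen and were not tested.

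Of the 9 genes, ANPEP, GGT1 and TMPRSS15 could each be tied to a single row of read counts. The ANPEP row held 36068, 30539 and 31188 reads in the heat-adapted and 25170, 32923 and 43574 in the heat-sensitive libraries. As log2 counts scaled to the library total (CPM + 1), this is a difference of -0.16, beside -0.17 in FPKM. The GGT1 row held 1348, 1351 and 1434 against 858, 1011 and 1881 reads, a difference of 0.08 beside 0.39 in FPKM. The TMPRSS15 row held 3847, 3168 and 2810 against 5038, 1931 and 1955 reads, a difference of 0.14 beside 0.90 in FPKM. Its mean CPM was 254 in the heat-adapted and 262 in the heat-sensitive libraries, so that the ratio of means, 0.970, and the mean of the log2 values differ in direction. Without heat-sensitive replicate 2 the read-count differences of GGT1 and TMPRSS15 were -0.05 and -0.12, and those in FPKM 0.26 and 0.65. Provided the rows were tied to the right genes, the size of the differences of these 2 genes thus depended on which heat-adapted columns were read. So did their sign without that library and, with all 6 libraries, the direction of the TMPRSS15 ratio of means. Both comparisons use the same heat-sensitive libraries. For ENPEP, DPP4, MME, ACE, MEP1A and MEP1B no single row met the criteria.

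**Figure D4:**
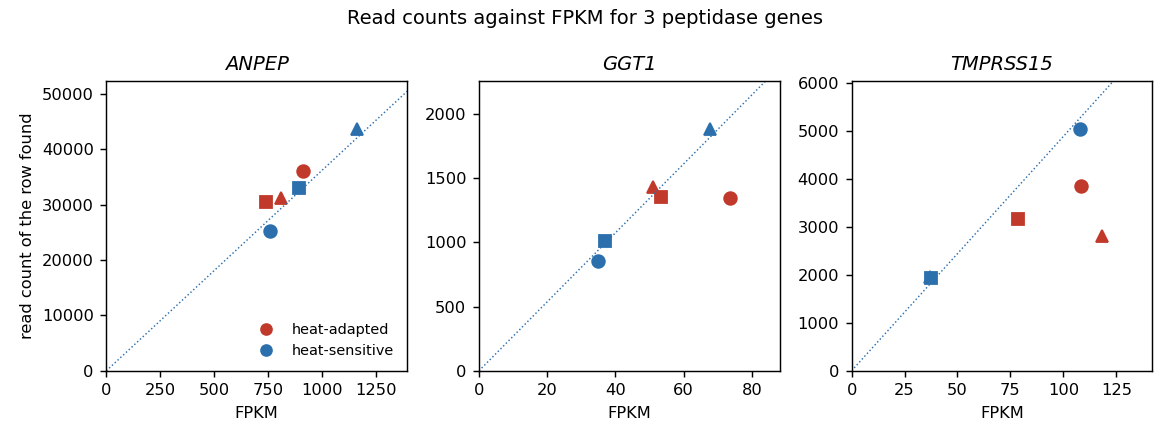
Read count of the row found against FPKM for ANPEP, GGT1 and TMPRSS15, with red points for heat-adapted and blue points for heat-sensitive libraries, marker shapes for replicates 1 (circle), 2 (square) and 3 (triangle), and a dotted line at the summed count over the summed FPKM of the heat-sensitive libraries. The heat-sensitive points lie close to the line. The rule for tying rows requires that count over FPKM keeps the same proportions between these libraries in each tied gene. It does not require the points to lie on the line. For TMPRSS15 heat-adapted replicate 3 has the highest FPKM, 118, with a read count of 2810 against 5038 in heat-sensitive replicate 1, where the FPKM is 108 (heat-sensitive replicates 2 and 3 lie on each other).

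Other genes of protein digestion were read in the same fit from lists that, like the 9 peptidases, were chosen with earlier results of these data known. None of these genes passed in limma after adjustment over all genes tested. For the lists below, 41.7% of all genes tested had a positive difference and 7.13% were higher at an unadjusted p under 0.05 in limma. The number of higher genes moved from 826 as deposited to 1342 with TPM. Of 12 other membrane peptidases tested, 9 had a positive log2 difference, with a median of 0.21, and 2 were higher and 0 lower at an unadjusted p under 0.05. The dipeptidase gene DPEP1 was at 130 ± 19.4 against 94.5 ± 12.7 (SD, n = 3 each), and ST14, a serine peptidase of epithelia, and XPNPEP2, an aminopeptidase that removes residues before proline, had log2 differences of 0.42 and 0.59.

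Of 21 cytosolic and lysosomal peptidases, which finish the digestion of short peptides inside the cell, 16 had a positive difference, with a median of 0.11, and 4 were higher and 1 lower at an unadjusted p under 0.05. NPEPL1, an aminopeptidase of the leucine aminopeptidase family, was at 74.0 ± 7.71 against 48.9 ± 3.71 and the proline dipeptidase gene PEPD at 496 ± 64.5 against 310 ± 137 (SD, n = 3 each). The aminopeptidase B gene RNPEP and the aminoacylase gene ACY1 had log2 differences of 0.39 and 0.36. The gene on the lower side, singled out after its values were seen, was CNDP1, at -0.52, which encodes the carnosine dipeptidase that is secreted into serum and so lies outside what the list's name says. Among 13 peptide and amino acid carriers, 9 had a positive difference, with a median of 0.36, and 5 were higher and 0 lower at an unadjusted p under 0.05. SLC6A19, the main carrier of neutral amino acids, had a log2 difference of 0.99, SLC7A9, of cystine and basic amino acids, 0.99, SLC36A1, of small amino acids, 0.66, and SLC1A1, of glutamate and aspartate, 0.58. The remaining gene of the 5, also singled out afterwards, was SLC7A6, at 0.34.

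All 16 other brush border hydrolases and scaffold genes had a positive difference, with a median of 0.48, beside 41.7% positive over all genes tested. At an unadjusted p under 0.05 in limma 10 of them were higher, beside 7.13% of all genes tested. This list shares VIL1, SI and ALPI with the markers of mature enterocytes above, so the lists are not separate observations. CDHR2, a cadherin that links microvilli, was at 215 ± 33.5 against 126 ± 28.3, the membrane linker gene EZR at 232 ± 61.2 against 137 ± 18.0 and the microvillus motor gene MYO1A at 223 ± 5.31 against 166 ± 7.23 (SD, n = 3 each). ESPN, which bundles actin, had a log2 difference of 0.48. The median of the 9 peptidases, 0.46, was thus close to that of the other brush border genes.

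Of 15 transcription factors of enterocytes, 9 had a positive difference, with a median of 0.17. KLF4 had a log2 difference of 1.05, HNF4A 0.55 and GATA5 0.36, and 3 of the 15 were higher and 0 lower at an unadjusted p under 0.05. A list of pancreatic enzymes had 12 genes in the table, and none of its zymogen genes, whose products are activated through enteropeptidase and trypsin, passed the filter of a mean FPKM of 1. AMY1A passed it, with a log2 difference of 0.07, and encodes an amylase, which is secreted in active form. CTRC was listed at 0 in every library, and PRSS2, a trypsinogen gene, was at 0.42 or less.

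**Figure D5:**
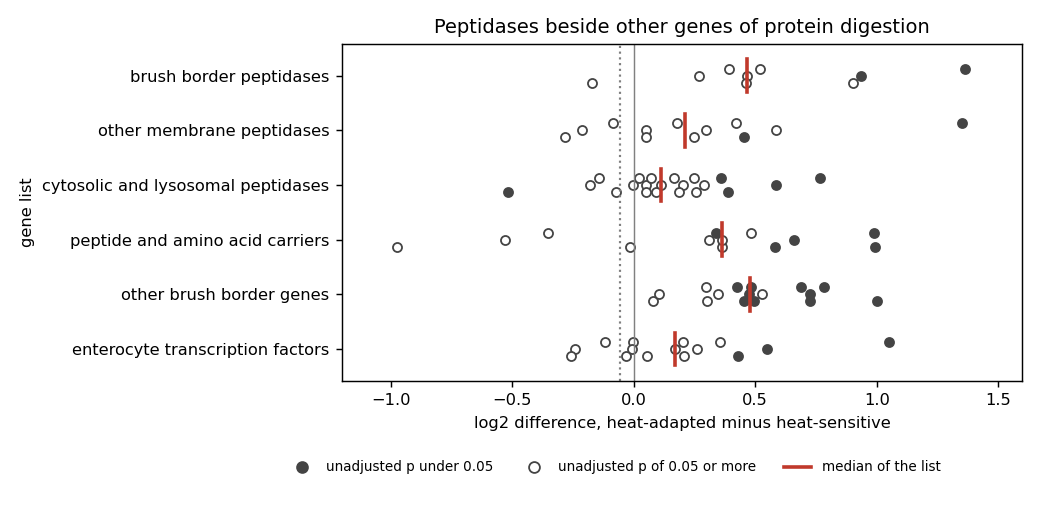
Log2 difference, heat-adapted minus heat-sensitive, of each tested gene of 6 lists, with filled points for an unadjusted p under 0.05, a red line at the list's median, a solid line at 0 and a dotted line at the median of all genes tested (-0.06). Medians are 0.46 for the brush border peptidases, 0.21 for other membrane peptidases, 0.11 for cytosolic and lysosomal peptidases, 0.36 for carriers, 0.48 for other brush border genes and 0.17 for transcription factors.

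The genes whose values followed the median profile of the 9 peptidases most closely over the 6 libraries were LOC100857706, KY, EPSTI1, PTGER4 and C3H1ORF115, with Pearson's r between 0.982 and 0.992. The points are 6 libraries in 2 groups and the genes were picked as the closest of all genes tested, so r is given as a description. C3H1ORF115 was at 306 ± 33.0 in the heat-adapted and 221 ± 43.5 in the heat-sensitive libraries (SD, n = 3 each).

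In the RefSeq annotation of GRCg7b, another build than the GRCg6a that the submitters name, 8 of the 9 symbols have a row. No coordinates are given for that reason. In that annotation MEP1A overlaps the long noncoding RNA gene LOC121110220 and MEP1B overlaps LOC112531843, and reads from such overlaps cannot be told apart here, since the strand setting of the counting is not given. The coding neighbours of MEP1B, RNF138 and GAREM1, had log2 differences of -0.04 and 0.11, beside 0.93 for MEP1B. GPR149, next to MME, had a log2 difference of 0.22 at a mean FPKM of 1.15 against 0.853. CYB561, a cytochrome gene next to ACE, was at 26.4 against 16.3, a log2 difference of 0.69 (adjusted p = 0.128 in limma). GCG, the proglucagon gene next to DPP4, was at 119 against 98.1, a log2 difference of 0.15.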

How the data were processed

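Per the labels' protocols, RNA of 4 hens was pooled per library, and cDNA was amplified by PCR with no molecular identifiers mentioned. The submitters' processing notes name HTSeq 0.6.1, HISAT2 2.0.1, DESeq2, cutadapt 1.9.1 and build GRCg6a, with no order. For strand setting and for reads shared between similar genes, the sources used here state nothing. Per the file headers, the values are FPKM, which the authors rounded to 2 decimals, and read counts, which the authors deposited beside them and which were taken as estimated counts because 13.2% to 13.7% per library are not whole. Across rows, the means of FPKM and of read counts had a Spearman's rho of -0.0048, so no count was read from the row of its symbol. Counts were used to search for rows and, for ANPEP, GGT1 and TMPRSS15, to compute differences beside those in FPKM. For the row search, the natural log ratios between heat-sensitive libraries in FPKM were shifted by amounts shared by all genes. These amounts were taken from the tallest peak and refined on the rows first tied. A row was tied to a gene where its log ratios differed from the shifted ones of the gene by at most 0.004. Those of every other row had to differ by more than 0.02, among rows with at least 200 reads in each heat-sensitive library. A total of 19 rows whose symbol had become a date were left out.

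Genes whose mean FPKM reached 1 were tested with limma 3.58.1 (R 4.3.3) on log2(FPKM + 1) values (trend and robust estimation, no block, all 6 libraries, 2-sided, Benjamini-Hochberg adjustment over all 11587 genes, threshold 0.05). All 9 peptidases passed the filter. The log2(FPKM + 1) scale understates changes of low genes. Pools are the replicates, so p-values measure the spread between pools of 4 hens. Named genes are the 9 peptidases, the 4 of smallest p in each other list and the 5 closest in profile. Some genes of the other lists that this would name are left out here. Neighbours and other genes named were chosen by position or after their values were seen. The members and lists were chosen with earlier results of these data known. Alternatives were another pseudocount, other filters, 3 scalings, limma without trend and robust estimation, a replicate block and leaving out each library.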

Additional observations from a re-analysis of the deposited data

How the results depend on the processing

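All 14 alternatives were fitted to the FPKM columns, and none changed the sign of any of the 9 log2 differences. In the read counts, the differences of GGT1 and TMPRSS15 were 0.08 and 0.14. Without heat-sensitive replicate 2 they turned to -0.05 and -0.12, while that of ANPEP stayed negative (-0.16 and -0.19). The number of peptidases passing in limma was 0 in 13 of the alternatives. It ranged from 0 to 1 over the fits without 1 library (MME, without heat-adapted replicate 3). The median of the 9 differences ranged from 0.39 to 0.66 over the fits without 1 library and was 0.59 with TPM. The number of all genes passing, 11, was 17 with a pseudocount of 0.1, 7 with no filter and 7 with a mean FPKM of at least 5, 38 with TPM, 20 with median-of-ratios scaling, and from 6 to 64 over the fits without 1 library. The cause of these changes was not tested. Labels do not say that replicate numbers pair libraries, and the correlations of same-numbered deviations were -0.16, 0.11 and -0.19. With the replicate block 46 genes and 0 peptidases passed (MME, adjusted p = 0.0558 in limma). Among genes at an unadjusted p under 0.05, 826 were higher and 1260 lower as deposited, 1342 and 701 with TPM, 1130 and 995 with median-of-ratios scaling, and 1126 and 1127 with quantile normalization. With 3 pools per group, the 95% intervals of the 9 differences reached 0.44 to 0.99 to either side on the log2 scale.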
